A study of Homo sapiens with 6 samples.

Results

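The genes described here are 46 genes for chaperones, cochaperones and folding enzymes of the endoplasmic reticulum (ER) and for ER-associated degradation (ERAD). They were chosen by name, as ER luminal chaperones and their partners, disulfide enzymes, prolyl isomerases and ERAD factors, and every non-control probe whose RefSeq accession maps to one of these symbols was taken. All 46 genes were on the array, with 62 probes, out of 16821 tested genes and 27624 tested probes. All 62 member probes were well above background on all 6 arrays. The cells were CAL-27, an established line from a human squamous cell carcinoma of the tongue. Total RNA was profiled on 1-colour Agilent arrays, 1 array per sample. The shXBP-1s group (n = 3) carried an shRNA against XBP-1s, which the labels call a transfection and the paper's methods a stable transduction, and the shCtrl group (n = 3) carried the control shRNA. Whether each group was a pool of cells or 1 clone is not given in the sources used here. The paper states in general that its legends count independent experiments, but for these arrays no source used here says whether replicates were separate cultures, so the p-values measure only the spread between these samples, which may be technical.

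Proteins that enter the secretory pathway fold in the ER with the help of the HSP70 chaperone BiP and its J-domain partners, the lectin chaperones of the calnexin cycle, and enzymes that form disulfide bonds or turn proline bonds. Chains that fail to fold are trimmed by mannosidases, recognised by lectins, passed through a membrane complex around the ubiquitin ligase HRD1 and extracted by the ATPase p97 for the proteasome. XBP-1s is the transcription factor made when the stress sensor IRE1 splices XBP1 mRNA, and it is known as an activator of many folding and ERAD genes in secretory cells, beside the factors ATF6 and ATF4. The comparison asked which of these genes differed in RNA level when XBP-1s was targeted in tumour cells.

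The XBP1 probe, which is spotted repeatedly on each array, read 1.88, 1.85 and 1.87 on the shCtrl arrays and -0.50, -0.54 and -0.52 on the shXBP-1s arrays. These values, like all levels below other than summed marker signals, are log2 signals relative to the 75th percentile of their own array. The groups did not overlap. The fall was 2.39 on the log2 scale, shXBP-1s minus shCtrl, and the files do not say whether this probe separates spliced from unspliced XBP1. Of 11 squamous epithelial markers, all were well above background on every array, and 8 were higher and 0 lower in shXBP-1s. Of all tested genes, 18.9% were higher and 27.5% lower. The largest rise among the 11 was that of KRT6A, by 4.28 on the log2 scale. Marker signals were also summed, without scaling between arrays. The 75th percentile of the unscaled signal was 687 to 761 on shCtrl arrays and 792 to 983 on shXBP-1s arrays. The squamous sum lay between 75657 and 81161 on shCtrl arrays and between 132238 and 139642 on shXBP-1s arrays. Of the fibroblast markers 5 of 7 were well above background on all arrays, with COL3A1 below it on every array, and 3 were higher (LUM by 1.94, FAP by 1.76 and PDGFRA by 1.03 on the log2 scale, the last measured well over background by only 1 shCtrl array) and 2 lower (PDGFRB by 1.28 and COL1A1 by 0.63), with a summed signal of 667 to 807 on shCtrl and 531 to 682 on shXBP-1s arrays. Of the 6 leukocyte markers tested 2 were lower and 0 higher, and they summed to 3144 to 4937 on shCtrl and 2567 to 3402 on shXBP-1s arrays, and the 4 endothelial markers, of which 0 passed, to 164 to 189 and 206 to 273. The part of these marker differences in the results below was not tested. Between 82.1% and 84.8% of spots were well above background and 0 were saturated. By the file headers, shCtrl replicates 2 and 3 had 1 scan time, and shCtrl replicate 1 had another that it shared with the 3 shXBP-1s arrays. The arrays of 1 scan time are taken here to be those of 1 slide.

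The folding and ERAD genes moved in both directions. HSPA5 and DNAJB9, the BiP chaperone and one of its J proteins, fell to 48.2% and 45.4% of their shCtrl signal, while the J protein DNAJC3 and the oxidase ERO1A rose 2.26-fold and 2.30-fold. Most other members changed little. Counting each gene by its brightest probe, 13 of the 46 were lower in shXBP-1s, 15 were higher and 18 did not pass the test, which was limma at a Benjamini-Hochberg adjusted p below 0.05 over all tested probes. Of all 16821 tested genes, 27.5% were lower, 18.9% higher and 46.4% passed in either direction, against 60.9% of the members. These shares of all tested genes are also the background to the counts by role group, promoter element and companion list below. The same holds for the marker counts above. The groups did not overlap for 28 of the 46 members, 13 lower and 15 higher, and they did not overlap for 56.5% of all tested genes. At a change of at least 2-fold as well, 2 members were lower and 2 higher, beside 2.88% and 2.3% of all tested genes.

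The size of the changes was small. Of the 28 members that passed, 20 changed by less than 1.5-fold and 8 by at least 1.5-fold. The median log2 fold change of the members was 0.06, and that of all tested genes was -0.04. Without its sign, the median was 0.18 for the members and 0.23 for all tested genes. In bulk RNA, less RNA per cell and fewer cells making it cannot be told apart.

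Slide and group were partly confounded, so each change was also computed with the slide as a block, which sets the shXBP-1s arrays against shCtrl replicate 1 alone. Fitted this way, 10 members were lower and 10 higher. The 8 that lost the call were HYOU1, PDIA3, PDIA5, PDIA6, FKBP2, FKBP11, MAN1B1 and HERPUD1, and 0 of the 28 turned direction. The calls of 16 members, 9 lower and 7 higher, held under every one of the 18 alternatives run: HSPA5, DNAJB9, ERO1B, ERP44, TXNDC11, FKBP14, SERP1, ERLEC1 and SEL1L were lower, and DNAJC3, DNAJC10, PDIA4, ERO1A, TXNDC5, EDEM3 and FAF2 were higher. Normexp background correction, 1 of these alternatives, moved the median of all tested probes to -0.41, and relative to that shift 9 of the 13 lower members stayed below it, while TXNDC11, FKBP2, HERPUD1 and UBXN4 lay above it, as did all 15 higher members. The members' median lay 0.52 above that of all probes under normexp, and 0.09 above it with the 75th-percentile scaling.

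**Figure D1:**
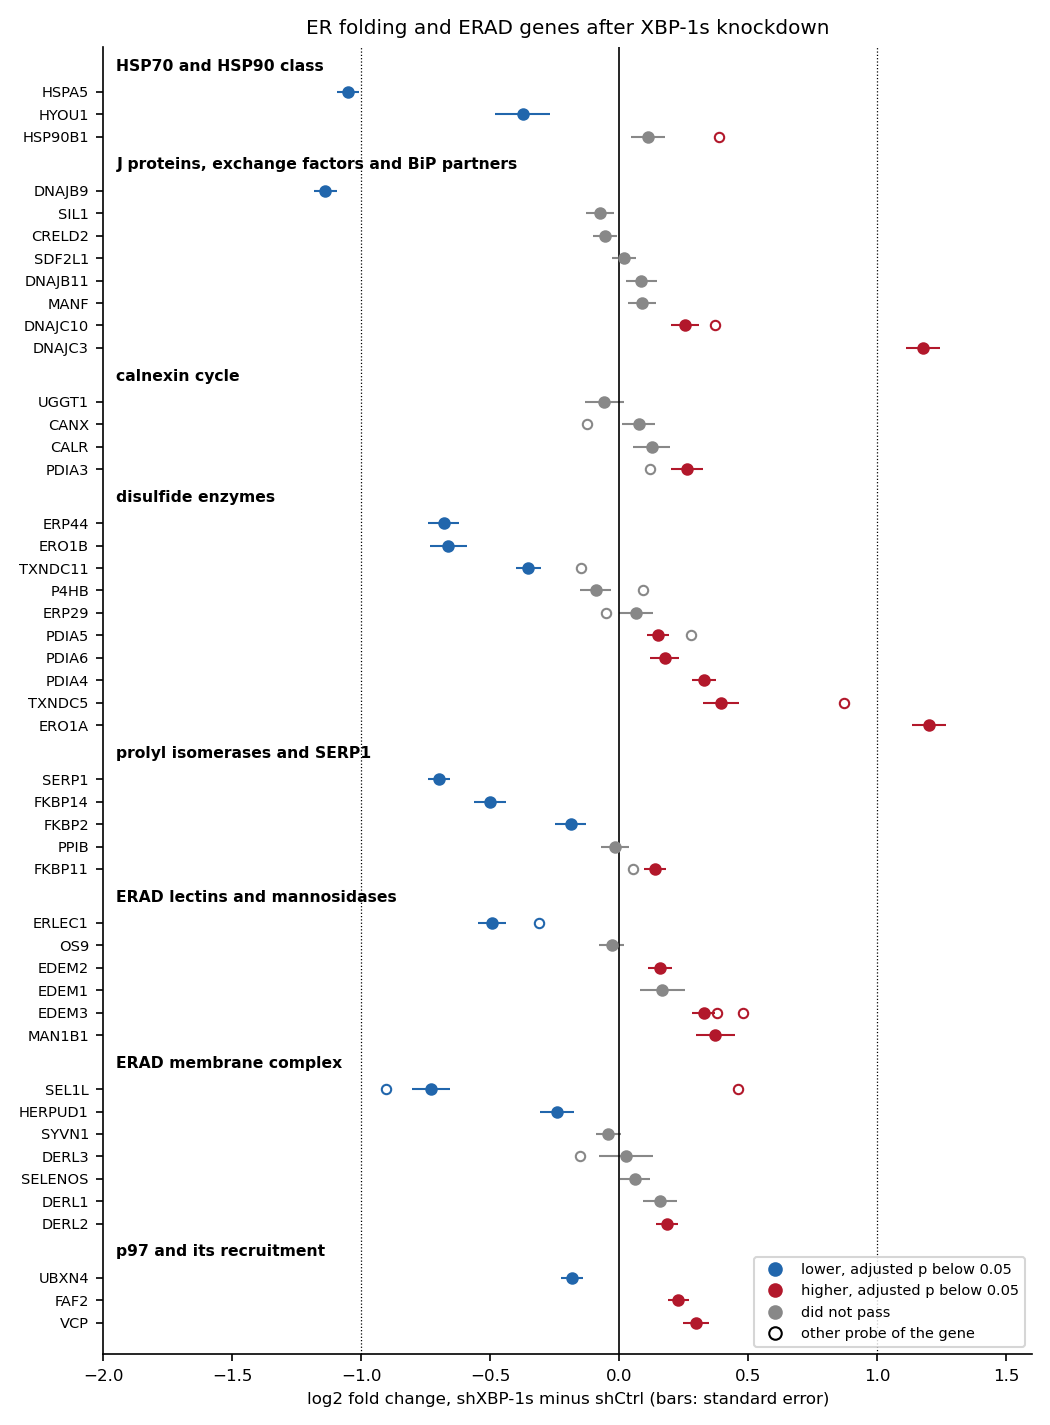
Log2 fold change (shXBP-1s minus shCtrl, x axis) of the 46 member genes by role. Filled points show the brightest probe with its standard error from limma, open points the other probes of the gene, and dotted lines a 2-fold change. Most points lie between the dotted lines, with HSPA5 and DNAJB9 to the left of them and DNAJC3 and ERO1A to the right.

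HSPA5 encodes BiP, the HSP70 chaperone of the ER lumen that binds unfolded chains and holds the stress sensors inactive. HSPA5 read 1.19, 1.21 and 1.25 on the shCtrl arrays and 0.21, 0.13 and 0.16 on the shXBP-1s arrays. Every shXBP-1s array was below every shCtrl array by far more than the spread within either group. The log2 fold change was -1.05 (standard error 0.04, adjusted p = 2.67e-06), and blocking by slide gave -1.02. The 250 bases upstream of the HSPA5 start (RefSeq, GRCh38.p14, chr9:125241344-125241593, minus strand, read 5′ to 3′ along the gene) are shown because they hold the elements through which stress factors are known to act on this gene. Capitals mark the pentamer CCAAT and the pentamers CCACG and also ACGTG, each on either strand, here and in the next upstream regions.
HSPA5: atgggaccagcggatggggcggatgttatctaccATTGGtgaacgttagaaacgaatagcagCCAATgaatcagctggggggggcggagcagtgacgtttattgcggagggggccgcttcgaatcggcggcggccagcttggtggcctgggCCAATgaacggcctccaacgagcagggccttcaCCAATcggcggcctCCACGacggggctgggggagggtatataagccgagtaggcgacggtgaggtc

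The other chaperones of this class differed from HSPA5. HYOU1, a large HSP70 relative that exchanges the nucleotide on BiP, fell by 0.37 on the log2 scale (adjusted p = 0.0231), a call lost with the slide as a block (adjusted p = 0.108) and without shCtrl replicate 3 (adjusted p = 0.0741), as well as under normexp (-0.63, adjusted p = 0.239) and with the methods' t-test after Benjamini-Hochberg adjustment (adjusted p = 0.0965). HSP90B1, the ER form of HSP90 known as GRP94, has a pair of probes. Its brightest probe read 5.83, 5.64 and 5.68 on the shCtrl arrays and 5.77, 5.83 and 5.88 on the shXBP-1s arrays. These ranges overlapped, with shCtrl replicate 1 as high as the shXBP-1s arrays, and the log2 fold change of 0.11 did not pass (adjusted p = 0.213). Its second probe read 3.08, 2.81 and 2.90 against 3.32, 3.31 and 3.32, without overlap, and rose by 0.39 (adjusted p = 0.00266).

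J-domain proteins bring substrates to BiP and start its ATPase cycle. DNAJB9, known as ERdj4, binds misfolded chains and represses IRE1. DNAJB9 read 1.12, 1.08 and 1.10 on the shCtrl arrays and -0.07, -0.06 and 0.02 on the shXBP-1s arrays. The groups lay far apart, and DNAJB9 had the largest fall of the 46 members, 1.14 on the log2 scale (standard error 0.05, adjusted p = 2.31e-06). Blocking by slide gave -1.16. The upstream region of DNAJB9 (chr7:108569624-108569873, plus strand) is shown with that of DNAJC3 (chr13:95676889-95677138, plus strand), the J protein that changed most in the other direction.
DNAJB9: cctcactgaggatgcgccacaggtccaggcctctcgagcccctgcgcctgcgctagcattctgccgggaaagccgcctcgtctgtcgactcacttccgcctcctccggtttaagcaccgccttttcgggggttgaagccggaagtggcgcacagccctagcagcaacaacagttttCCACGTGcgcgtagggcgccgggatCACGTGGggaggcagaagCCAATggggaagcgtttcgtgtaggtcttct
DNAJC3: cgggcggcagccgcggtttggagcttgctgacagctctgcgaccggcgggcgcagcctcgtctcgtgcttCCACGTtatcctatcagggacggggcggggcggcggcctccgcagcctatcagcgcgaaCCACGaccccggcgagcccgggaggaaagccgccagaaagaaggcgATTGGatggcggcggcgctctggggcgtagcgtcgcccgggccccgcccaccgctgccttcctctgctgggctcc

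DNAJC3, known as P58IPK, is a J protein of the lumen that was first described as an inhibitor of eIF2α kinases. DNAJC3 read -2.54, -2.39 and -2.49 on the shCtrl arrays and -1.34, -1.33 and -1.22 on the shXBP-1s arrays. Even the lowest shXBP-1s array was well above the highest shCtrl array. DNAJC3 rose by 1.18 (standard error 0.06, adjusted p = 6.85e-06), or by 1.25 when blocked by slide and by 0.66 under normexp. DNAJC10, known as ERdj5, is a J protein that also reduces disulfides of ERAD substrates, and its 2 probes rose by 0.26 and 0.37 (adjusted p = 0.00692 and 0.00116).

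The remaining partners of BiP did not pass the test in the main fit. SDF2L1, which works in a complex with the J protein DNAJB11, read 1.73, 1.80 and 1.82 on the shCtrl arrays and 1.77, 1.79 and 1.85 on the shXBP-1s arrays. The ranges overlapped almost fully and the log2 fold change was 0.02 (standard error 0.05, adjusted p = 0.772). DNAJB11 itself had a log2 fold change of 0.09, the exchange factor SIL1 of -0.07, and CRELD2 and MANF, both known as secreted or ER-resident stress genes, of -0.06 and 0.09. MANF passed under quantile normalization and with the deposited log2 values (0.14 in each), and DNAJB11 passed under normexp (0.30). In the main fit 1 of the 8 genes of this role group was lower, 2 were higher and 5 did not pass.

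**Figure D2:**
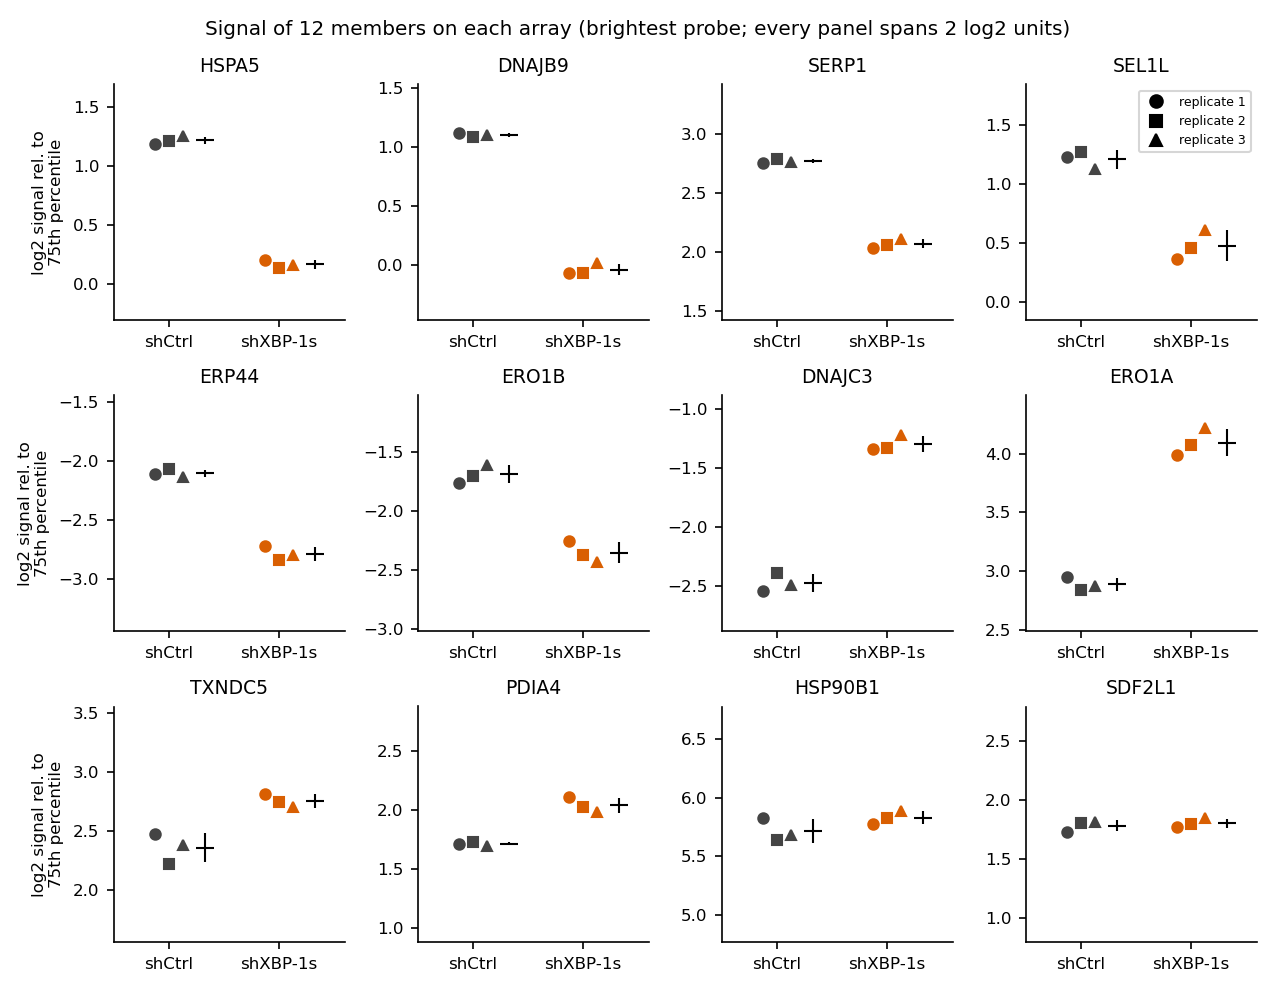
Log2 signal relative to the array's 75th percentile (y axis) of 12 members on each of the 6 arrays, with replicates 1, 2 and 3 as circles, squares and triangles, and with group means and standard deviations as crosses. The y axes start at different levels but each covers 2 log2 units. The 12 genes were picked by hand and include the members past 2-fold, HSPA5, DNAJB9, DNAJC3 and ERO1A. The groups are apart for 10 of these 12 and overlap for HSP90B1 and SDF2L1. They are apart for 60.9% of all 46 members and 56.5% of all tested genes.

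The calnexin cycle holds glycoproteins by their trimmed glycans until they fold, and 0 of its 4 members here was lower and 1 was higher. CALR, the soluble lectin calreticulin, read 5.63, 5.78 and 5.83 on the shCtrl arrays and 5.78, 5.91 and 5.93 on the shXBP-1s arrays. The lowest shXBP-1s array lay within the shCtrl range, and the log2 fold change of 0.13 did not pass (adjusted p = 0.199). UGGT1, the glucosyltransferase that returns unfolded glycoproteins to the cycle, read -1.71, -1.45 and -1.53 against -1.68, -1.61 and -1.57. The shXBP-1s values fell inside the shCtrl range, and the log2 fold change was -0.06. CANX, the membrane-bound lectin calnexin, had 2 probes at 0.07 and -0.13, of which 0 passed.

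PDIA3, known as ERp57, is the disulfide isomerase that docks on both lectins. The brightest PDIA3 probe read 3.26, 3.06 and 3.18 on the shCtrl arrays and 3.46, 3.45 and 3.37 on the shXBP-1s arrays. The groups did not overlap, and the rise was 0.26 on the log2 scale (standard error 0.06, adjusted p = 0.011). It just missed the threshold with the methods' t-test (Benjamini-Hochberg adjusted p = 0.0512) and was 0.40 under normexp. With the slide as a block it was 0.16 (adjusted p = 0.152), since shCtrl replicate 1, the control on the shared slide, was the highest of the shCtrl arrays. The second PDIA3 probe gave 0.12 and did not pass (adjusted p = 0.106).

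Disulfide enzymes, with 10 genes the largest role group, moved in both directions, with 3 lower, 5 higher and 2 not passing. The ERO1 oxidases recharge protein disulfide isomerase with oxidising power, and the 2 genes for them moved in opposite directions. ERO1A, spotted 10 times on each array, read 2.95, 2.85 and 2.87 on the shCtrl arrays and 3.99, 4.07 and 4.22 on the shXBP-1s arrays. ERO1A was higher on every shXBP-1s array and had the largest rise of the 46 members, 1.20 on the log2 scale (standard error 0.07, adjusted p = 7.22e-06), or 1.14 when blocked by slide. The 10 spots of ERO1A on an array had standard deviations of 0.04 to 0.07 on the log2 scale. ERO1B fell by 0.66 (adjusted p = 0.000173), with -1.76, -1.70 and -1.61 on the shCtrl arrays and -2.25, -2.37 and -2.43 on the shXBP-1s arrays, again without overlap. The upstream region of ERO1A (chr14:52695559-52695808, minus strand) is shown as that of the member with the largest rise.
ERO1A: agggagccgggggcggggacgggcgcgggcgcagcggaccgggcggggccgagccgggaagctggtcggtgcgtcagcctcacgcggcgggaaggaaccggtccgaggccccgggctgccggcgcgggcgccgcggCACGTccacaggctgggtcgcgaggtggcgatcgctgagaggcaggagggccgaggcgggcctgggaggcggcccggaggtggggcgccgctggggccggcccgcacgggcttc

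ERP44 retains ERO1 oxidases and unassembled cargo in the early secretory pathway. ERP44 read -2.11, -2.07 and -2.13 on the shCtrl arrays and -2.72, -2.84 and -2.79 on the shXBP-1s arrays. All shXBP-1s arrays were lower, and the fall was 0.68 on the log2 scale (standard error 0.06, adjusted p = 6.92e-05). TXNDC11, a thioredoxin-domain protein known to work with EDEM mannosidases, fell by 0.35 with its brightest probe (adjusted p = 0.000587), while its second probe gave -0.15 and did not pass.

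PDIA4, TXNDC5, PDIA5 and PDIA6 passed and were higher in shXBP-1s, unlike ERP44 and TXNDC11 above, which were lower. PDIA4, known as ERp72, read 1.72, 1.73 and 1.70 on the shCtrl arrays and 2.11, 2.03 and 1.99 on the shXBP-1s arrays. The groups did not overlap and the rise was 0.33 (standard error 0.05, adjusted p = 0.000856). TXNDC5, known as ERp46, rose by 0.39 and 0.87 with its 2 probes (adjusted p = 0.00246 and 6.99e-05), by 0.63 with their mean, and by 0.61 with the brightest under normexp. PDIA5 and PDIA6, isomerases of the same family, rose by 0.15 and 0.18 (adjusted p = 0.0215 and 0.0408), and both calls were lost with the slide as a block (adjusted p = 0.127 and 0.232). Each was also lost when shCtrl replicate 2 or 3, or shXBP-1s replicate 1 or 2, was left out, with adjusted p from 0.0589 to 0.0814 for PDIA5 and from 0.104 to 0.13 for PDIA6. Under normexp PDIA5 gave 0.09 (adjusted p = 0.453) and PDIA6 0.30 (adjusted p = 0.00825). PDIA5 was further lost under normexp with quantile normalization and with the replicate block. PDIA6 was further lost without the filter on dim probes, in limma without trend and with the methods' t-test. The adjusted p ran from 0.051 to 0.131 over these 5 fits. The second PDIA5 probe rose by 0.28 without overlap of the groups but did not pass in the main fit (adjusted p = 0.0588). The mean of the PDIA5 probes rose by 0.21.

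P4HB is protein disulfide isomerase itself, the founding enzyme of the family. Its brightest probe read 5.77, 5.70 and 5.75 on the shCtrl arrays and 5.56, 5.65 and 5.74 on the shXBP-1s arrays. The ranges overlapped through shXBP-1s replicate 3, and the log2 fold change of -0.09 did not pass (adjusted p = 0.271). The second P4HB probe gave 0.09 (adjusted p = 0.348), the opposite sign. ERP29, a family member without redox activity, had probes at 0.07 and -0.05, of which 0 passed.

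SERP1, known as RAMP4, is a small membrane protein that binds the translocon and stabilises new membrane proteins under stress. SERP1 read 2.76, 2.79 and 2.77 on the shCtrl arrays and 2.04, 2.06 and 2.12 on the shXBP-1s arrays. The groups were far apart relative to their spread, and the fall was 0.70 on the log2 scale (standard error 0.04, adjusted p = 1.06e-05). The prolyl isomerases, which turn the peptide bond before proline, were grouped with it. FKBP14 fell by 0.50 (adjusted p = 0.000439) and FKBP2 by 0.19 (adjusted p = 0.035), the latter not passing with the slide as a block (adjusted p = 0.223) or without shCtrl replicate 2 or 3 or shXBP-1s replicate 1 or 2 (adjusted p from 0.0839 to 0.114). The FKBP2 value was -0.10 under normexp (adjusted p = 0.636) and -0.10 under quantile normalization (adjusted p = 0.0473), and the call was also lost without the filter on dim probes, in limma without trend and with the methods' t-test (adjusted p = 0.0528, 0.0668 and 0.0818).

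FKBP11 moved the other way. The brightest FKBP11 probe read 1.37, 1.42 and 1.44 on the shCtrl arrays and 1.56, 1.53 and 1.56 on the shXBP-1s arrays. These groups did not overlap, but the rise was 0.14 (adjusted p = 0.0328) and passed in 6 of the 18 alternatives, being lost whichever 1 of the 6 arrays was left out (adjusted p from 0.063 to 0.101). The second FKBP11 probe gave 0.05 (adjusted p = 0.344). PPIB, the ER cyclophilin, had a log2 fold change of -0.02 (adjusted p = 0.836). Of these 5 genes 3 were lower, 1 was higher and 1 did not pass.

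Among the mannosidases and lectins that mark glycoproteins for ERAD, 1 of 6 was lower and 3 were higher. ERLEC1, a lectin known as XTP3-B that hands substrates to the HRD1 complex, read 2.19, 2.22 and 2.18 on the shCtrl arrays and 1.64, 1.67 and 1.80 on the shXBP-1s arrays. All 3 shXBP-1s arrays were lower, with a fall of 0.49 (standard error 0.05, adjusted p = 0.000192), and its second probe fell by 0.31 (adjusted p = 0.000719). OS9, the other lectin of this step, had a log2 fold change of -0.03 (adjusted p = 0.647).

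The mannose-trimming enzymes that passed were higher. MAN1B1, ER mannosidase I, read -1.18, -1.27 and -1.19 on the shCtrl arrays and -0.74, -0.78 and -1.004 on the shXBP-1s arrays. The groups did not overlap, with shXBP-1s replicate 3 nearest to the controls, and the rise of 0.37 (standard error 0.08, adjusted p = 0.00547) did not pass with the slide as a block (adjusted p = 0.0537) or under normexp (0.14, adjusted p = 0.473). EDEM3 rose with all 3 of its probes, by 0.33, 0.38 and 0.48 (adjusted p = 0.000623, 0.00083 and 0.00486), and EDEM2 by 0.16 (adjusted p = 0.0281). The EDEM2 call was lost on leaving out any 1 array other than shCtrl replicate 2 (adjusted p from 0.057 to 0.0782), in limma without trend (adjusted p = 0.0621) and with the replicate block (adjusted p = 0.06). EDEM1, long used as a readout of XBP-1s activity, read -1.81, -1.97 and -1.93 on the shCtrl arrays and -1.57, -1.76 and -1.88 on the shXBP-1s arrays. The shXBP-1s arrays spread widely and reached into the shCtrl range, and the log2 fold change of 0.17 did not pass (adjusted p = 0.171).

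The membrane complex of ERAD is built on the ligase HRD1, encoded by SYVN1, and its scaffold SEL1L. SYVN1 read 3.66, 3.69 and 3.67 on the shCtrl arrays and 3.55, 3.66 and 3.68 on the shXBP-1s arrays. The ranges overlapped and the log2 fold change of -0.04 did not pass (adjusted p = 0.53). HERPUD1, which recruits and stabilises the complex and is itself induced by stress, read 2.87, 2.99 and 2.90 on the shCtrl arrays and 2.57, 2.67 and 2.79 on the shXBP-1s arrays. HERPUD1 was lower on every shXBP-1s array, and its fall of 0.24 (standard error 0.06, adjusted p = 0.0183) was lost with the slide as a block (adjusted p = 0.157) and without shCtrl replicate 2 or shXBP-1s replicate 2 (adjusted p = 0.0633 and 0.0664). Under normexp HERPUD1 gave -0.09 (adjusted p = 0.458), and the call was also lost under normexp with quantile normalization (-0.17, adjusted p = 0.0664) and with the methods' t-test (adjusted p = 0.0737).

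SEL1L had 3 probes, all listed under the same accession, and they did not agree in direction. The brightest read 1.23, 1.27 and 1.12 on the shCtrl arrays and 0.36, 0.46 and 0.61 on the shXBP-1s arrays, a fall of 0.73 (standard error 0.07, adjusted p = 0.000125). Another read -2.17, -2.33 and -2.28 against -1.68, -1.80 and -1.91, a rise of 0.46 (adjusted p = 0.00201). The faintest read -4.47, -4.36 and -4.33 against -5.33, -5.30 and -5.27, a fall of 0.91 (adjusted p = 0.000209). Within each probe the groups did not overlap, and the mean of the 3 probes fell by 0.39 (adjusted p = 0.000422). Which part of the SEL1L transcript each probe reads is not given in the files, and its part in the disagreement was not tested.

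Derlins are membrane proteins that form part of the exit channel. DERL2, spotted 10 times, read 0.36, 0.40 and 0.41 on the shCtrl arrays and 0.55, 0.57 and 0.61 on the shXBP-1s arrays. The groups did not overlap and the rise was 0.18 (standard error 0.04, adjusted p = 0.0106), a call lost without shXBP-1s replicate 2 (adjusted p = 0.0534). DERL3 read -0.62, -0.32 and -0.24 on the shCtrl arrays and -0.33, -0.28 and -0.51 on the shXBP-1s arrays. Its shXBP-1s values all lay inside the shCtrl range, and its 2 probes gave 0.02 and -0.15, of which 0 passed. DERL1 gave 0.16 (adjusted p = 0.0951), and SELENOS, which links the complex to p97, gave 0.06 (adjusted p = 0.435). Of the 7 genes of the membrane complex 2 were lower, 1 was higher and 4 did not pass.

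VCP encodes p97, the ATPase that pulls ubiquitinated chains out of the membrane. VCP read 3.59, 3.59 and 3.54 on the shCtrl arrays and 3.81, 3.85 and 3.95 on the shXBP-1s arrays. All shXBP-1s arrays were higher, and the rise was 0.30 (standard error 0.05, adjusted p = 0.00212), a call lost under normexp (0.29, adjusted p = 0.0658). FAF2, an ER membrane protein that recruits p97, rose by 0.23 (adjusted p = 0.00258), or by 0.35 under normexp. UBXN4, another membrane adaptor of p97, read 1.75, 1.68 and 1.72 on the shCtrl arrays and 1.53, 1.54 and 1.52 on the shXBP-1s arrays. UBXN4 was lower on every shXBP-1s array, by 0.18 (standard error 0.04, adjusted p = 0.00895), and the call was lost under all 4 other scalings. UBXN4 gave -0.03 under normexp (adjusted p = 0.807), -0.06 under normexp with quantile normalization (adjusted p = 0.425), and -0.12 both under quantile normalization and with the deposited log2 values (adjusted p = 0.0571 and 0.0565).

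Probes of 1 gene did not always give the same call. Of the 46 members, 32 had 1 probe and 14 had several. Among these 14, all probes passed in the same direction for 4 (DNAJC10, TXNDC5, EDEM3 and ERLEC1), 4 had no probe that passed (CANX, P4HB, ERP29 and DERL3) and 5 had some but not all probes passing (HSP90B1, PDIA3, PDIA5, TXNDC11 and FKBP11). Within each of these last 5 genes the probes had the same sign. SEL1L was the 1 gene with passing probes in both directions. Counted by probe, 15 of the 62 were lower, 21 were higher and 26 did not pass, beside 23.3% lower, 18.4% higher and 41.7% in either direction of all 27624 tested probes. For 40 of the 62 the groups were apart, beside 52.4% of all 27624.

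**Figure D3:**
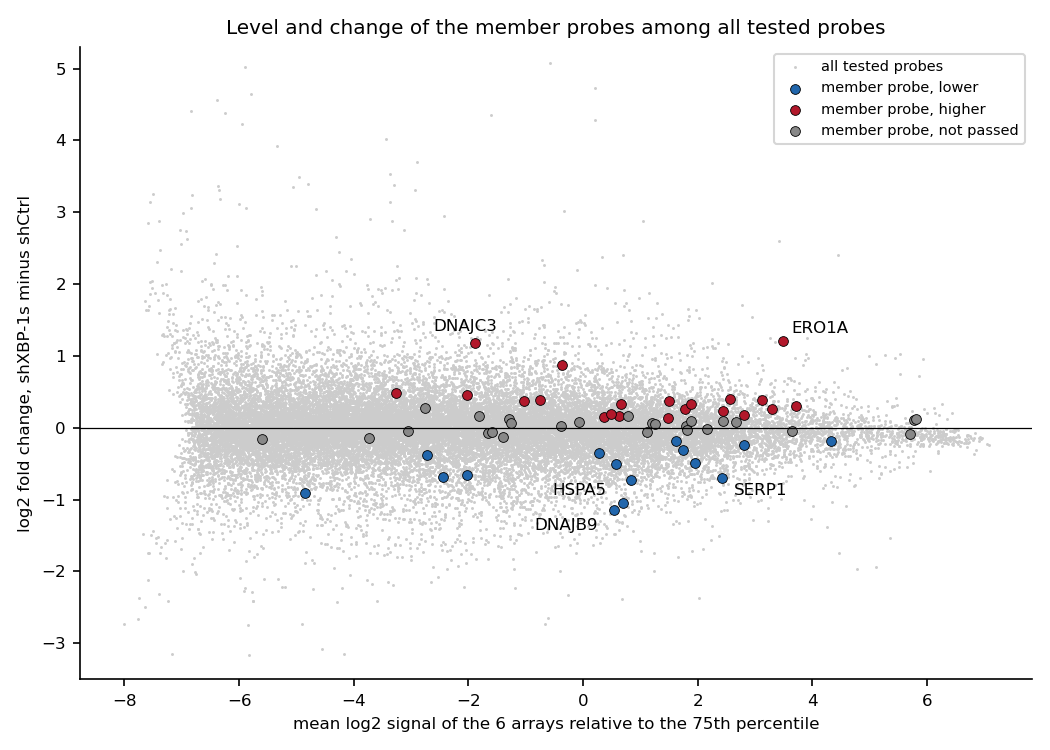
Log2 fold change (shXBP-1s minus shCtrl, y axis) of all 27624 tested probes against the mean log2 signal of the 6 arrays (x axis), with the 62 member probes coloured by their test result. A probe's brightness depends on the probe as well as on its RNA, so the x axis ranks no genes. Member probes lie between log2 fold changes of -1.14 and 1.20, inside the spread of all probes.

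Promoter sequences were available from RefSeq (GRCh38.p14) for 42 of the 46 members, as 300 bases from 250 before to 50 after the annotated start. PDIA3, DERL1, DERL3 and FKBP14 had no entry. ER stress factors are known to bind a small set of elements, and 3 of them were searched as exact letters on both strands. The ER stress response element (ERSE), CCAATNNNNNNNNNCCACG, is bound by ATF6, and also by XBP-1s, together with the CCAAT factor NF-Y. It was found in 8 of the 42 members (19.0%), counting each gene by any of its promoters, against 25 of all 27305 genes in the table (0.0916%), so that 8 of these 25 were members. All genes together have 35116 promoters, 27 of them with the element (0.0769%). The 8 windows are shown because these are the members with the classical stress element. Capitals mark the element, which reads CCAAT first on the sense strand and CGTGG first where it lies on the other strand.
HSPA5: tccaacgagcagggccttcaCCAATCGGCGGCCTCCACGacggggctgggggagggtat
SERP1: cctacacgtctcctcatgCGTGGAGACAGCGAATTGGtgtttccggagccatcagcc
ERO1B: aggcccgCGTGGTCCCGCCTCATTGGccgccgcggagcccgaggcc
CRELD2: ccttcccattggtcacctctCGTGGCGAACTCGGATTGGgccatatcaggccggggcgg
CANX: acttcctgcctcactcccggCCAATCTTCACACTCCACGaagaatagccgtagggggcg
HSP90B1: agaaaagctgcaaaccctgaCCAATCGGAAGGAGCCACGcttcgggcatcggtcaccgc
CALR: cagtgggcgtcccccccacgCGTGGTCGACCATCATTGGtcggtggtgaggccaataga
PDIA6: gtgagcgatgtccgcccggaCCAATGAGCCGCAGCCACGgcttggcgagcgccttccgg

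The 8 genes with this element did not change alike. HSPA5, SERP1 and ERO1B were lower, PDIA6 was higher, and CRELD2, CANX, HSP90B1 and CALR did not pass with their brightest probe. Their log2 fold changes ran from -1.05 for HSPA5 to 0.18 for PDIA6, with a median of 0.01. The windows lie at chr9:125241371-125241429 (HSPA5, minus strand), chr3:150546690-150546746 (SERP1, minus), chr1:236282163-236282208 (ERO1B, minus), chr22:49918534-49918592 (CRELD2, plus), chr5:179698758-179698816 (CANX, plus), chr12:103930196-103930254 (HSP90B1, plus), chr19:12938364-12938422 (CALR, plus) and chr2:10812833-10812891 (PDIA6, minus). HSP90B1 held the element at 2 places, and CANX held it at the same place as seen from 3 annotated starts.

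The second element, ERSE-II (ATTGGNCCACG), was found in 3 members, HERPUD1 (chr16:56932005-56932055, plus strand), HYOU1 (chr11:119057360-119057410, minus) and SDF2L1 (chr22:21642094-21642144, plus), against 19 of 27305 genes (0.0696%). Their windows are shown for comparison with the ERSE, with the element in capitals.
HERPUD1: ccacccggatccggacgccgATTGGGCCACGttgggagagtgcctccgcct
HYOU1: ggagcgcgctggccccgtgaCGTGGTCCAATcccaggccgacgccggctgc
SDF2L1: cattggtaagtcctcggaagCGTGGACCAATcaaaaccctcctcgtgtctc

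HERPUD1 and HYOU1 were lower, by 0.24 and 0.37, and SDF2L1 did not pass, with its log2 fold change at 0.02. The element associated with XBP-1s, the UPRE (TGACGTGG), was found in DNAJC10, HYOU1, TXNDC11, TXNDC5 and VCP, against 253 of all genes (0.927%). Of these 5 members 2 were lower (HYOU1 and TXNDC11) and 3 were higher (DNAJC10, TXNDC5 and VCP). In HYOU1 the UPRE overlaps one of its ERSE-II matches, and every UPRE contains CCACGT on its other strand. CCACGT alone was found in 20 members (47.6%), against 3175 of all genes (11.6%), and 6 of the 20 were lower, 8 higher and 6 did not pass. DNAJB9 and DNAJC3 both held CCACGT, at 2 places and at 1 place in the regions printed above, and moved in opposite directions. Of the 27 members with none of the 3 longer elements, 6 were lower, 10 were higher and 11 did not pass. A match of letters is no test of binding, and a missing match says only that these letters are not in these 300 bases.

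**Figure D4:**
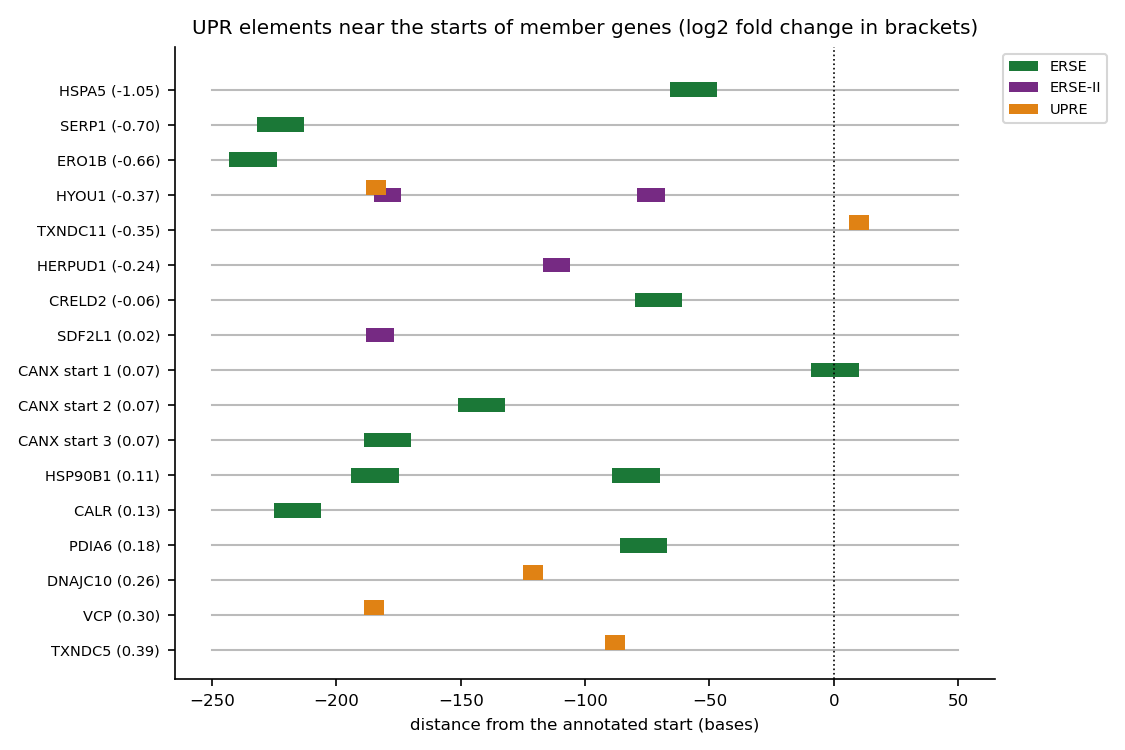
Positions of the ERSE, ERSE-II and UPRE matches (coloured boxes) in the 300 bases around the annotated start (x axis, bases from the start) of the members that hold one, ordered by log2 fold change, which is given in brackets. CANX is drawn at 3 annotated starts, which all show the same site. Genes with an ERSE run from HSPA5 at the top of the order, at -1.05, to PDIA6 at 0.18. Below PDIA6 stand DNAJC10, VCP and TXNDC5, at 0.26, 0.30 and 0.39, which hold a UPRE but no ERSE.

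Neighbouring pathways were counted in the same way from lists written from general knowledge. The share that passed was 55.0% of the further ER folding and ERAD genes and 64.5% of the ER entry genes. Of all tested genes 46.4% passed, 27.5% lower and 18.9% higher. Of 40 further ER folding and ERAD genes, 10 were lower, 12 were higher and 18 did not pass, with a median log2 fold change of -0.04. Under normexp the lower count was 4. The 1 gene among them with a change of at least 2-fold was MAN1A1, a Golgi mannosidase, which rose by 1.33 (adjusted p = 2.2e-06). Of 31 genes for entry into the ER and oligosaccharyl transfer, which feed the folding machinery, 15 were lower, 5 were higher and 11 did not pass, with a median of -0.14. Under normexp 8 were lower. SEC62, a subunit that serves post-translational entry, fell by 1.02 (adjusted p = 0.000159) and was the 1 gene of that list past 2-fold.

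Chaperones outside the ER and the UPR factors showed mixed counts as well. The share that passed was 46.4% of the cytosolic chaperones and 53.3% of the UPR genes, beside 46.4% of all tested genes. Of 28 cytosolic chaperones, 5 were lower, 8 were higher and 15 did not pass, with a median of 0.09. The lower count was 2 without shXBP-1s replicate 2, 3 without shCtrl replicate 2 and 3 without shCtrl replicate 3, and the higher count was 5 without shXBP-1s replicate 2. Over all 18 alternatives the higher count reached 13 at most. With the slide as a block 2 were lower and 3 higher. Of 15 UPR sensors and factors, 3 were lower, 5 were higher and 7 did not pass, with a median of 0.04. NFYB, a subunit of the CCAAT factor NF-Y, fell by 1.10 (adjusted p = 5.41e-06), and the other subunits NFYA and NFYC gave 0.75 (adjusted p = 4.06e-05) and -0.01 (adjusted p = 0.963). The transducer ATF6 rose by 0.32 (adjusted p = 0.00174), and the factor ATF4 gave 0.02 (adjusted p = 0.829); these 2 genes and NFYA and NFYC were named after their values were seen.

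**Figure D5:**
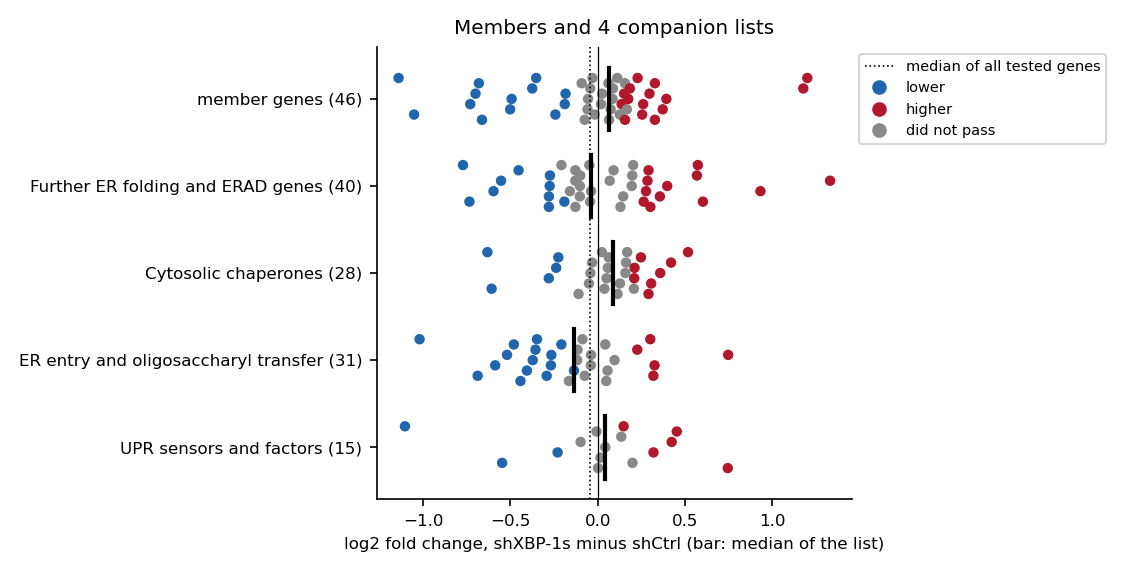
Log2 fold change (shXBP-1s minus shCtrl, x axis) of each gene by its brightest probe, for the 46 members and 4 companion lists, coloured by test result. Black bars are the list medians and the dotted line is the median of all tested genes at -0.04. The members' bar lies at 0.06 and that of ER entry and oligosaccharyl transfer at -0.14, with genes on both sides of 0 in every list.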

How the data were processed

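Total RNA from CAL-27 cells (shCtrl, n = 3; shXBP-1s, n = 3) was labelled with Cy3 and hybridised to Agilent whole human genome arrays (design 026652), 1 array per sample; the labels describe a NimbleGen labelling protocol. Per the file headers, the deposited intensity of a spot is the signal of Agilent Feature Extraction 11.0.1.1 after background subtraction and spatial detrending, not normalized between arrays. The authors also deposited log2 values with equal quartiles on the 6 arrays, for which the submitters' processing notes name RMA, and these were used only as an alternative.

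From the log2 of each intensity the 75th percentile of its array over all non-control spots was subtracted. Spots with an outlier flag (230 to 377 per array) were then dropped, and repeated spots were averaged. A probe counted as well above background on an array if over 50% of its spots did. Of 34127 probes, 27624 reached this on every array of at least 1 group and were fitted with limma 3.58.1 in R 4.3.3 (lmFit, then eBayes with trend), 2-sided, and p-values were adjusted by Benjamini-Hochberg over these 27624. Probes were named by matching RefSeq accessions to GRCh38.p14 transcripts (25771 matched). A gene counted by its brightest tested probe. The number of arrays limits the precision, and an exact permutation test of 3 against 3 arrays cannot go below p = 0.1. Slides were inferred from scan times in the file headers. The script was tested on simulated data.

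The members, the companion lists, the marker lists and the rule for named genes were chosen with earlier results of these data known. Values on every array were given for members with at least a 2-fold change, for 14 well-known members and for the largest rise and fall in each role group, and a few others were added. Replicate numbers were checked for pairing: same-numbered arrays had correlations of -0.02, 0.12 and -0.12 between their deviations from the group means, so the main fit had no replicate block.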

Additional observations from a re-analysis of the deposited data

How the results depend on the processing

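The counts of members that passed stayed within 1.5 times under all 18 alternatives, between 9 and 13 lower and between 10 and 19 higher (main 13 and 15). At least 2-fold, 1 lower and 1 higher member were left under normexp, and 1 and 1 under normexp with quantile normalization (main 2 and 2). Under normexp 9 member probes were lower (main 15), and 16 companion genes were lower (main 33). The members' median log2 fold change, 0.06, was 0.105 under quantile normalization, 0.101 under normexp (where all probes had a median of -0.41), 0.110 under normexp with quantile normalization, 0.105 with the deposited log2 values, 0.0132 when all probes of a gene were averaged, and 0.0288 to 0.0953 when 1 array was left out, with 0.0288 without shCtrl replicate 1, 0.0953 without shCtrl replicate 3 and 0.0325 without shXBP-1s replicate 1. Quantile normalization moved the share of higher among called probes from 44.2% to 49.9%.

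For the 24 members chosen by the rule for named genes (ERO1B, also given by array, was added), 387 of 432 values kept direction and side of the threshold, 28 lost the call, 7 gained it and 10 turned sign, none of these 10 in a member that had passed. With the slide as a block HSP90B1 gave -0.000273 and UGGT1 0.0856. Under normexp P4HB gave 0.0188, EDEM1 -0.0980 and SYVN1 0.0976. Leaving out 1 array, SDF2L1 ran from -0.00747 (without shCtrl replicate 1) to 0.0369 and was -0.00282 without shXBP-1s replicate 3. DERL3 ran from -0.0870 (without shCtrl replicate 1) to 0.101, was -0.0226 without shXBP-1s replicate 2, and was -0.0635 when its probes were averaged. Calls gained were those of HSP90B1 (0.21 under quantile normalization) and CALR (0.22). Among members outside the 24, DNAJB11 gained a call under normexp (0.30) and CANX under normexp with quantile normalization (0.20). MANF and DERL1 gained a call under quantile normalization (0.14 and 0.21) and with the deposited log2 values. The cause of these shifts was not tested.

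With the replicate number as a block, which the pairing check did not bear out, 13 members were lower and 12 higher, and over all probes 6113 were lower and 5003 higher. Only the replicate 2 arrays correlated best with their own number. The median spot signal was used for normexp. The smallest change of a member that passed, by its brightest probe and with 3 arrays per group, was 1.10-fold, for FKBP11.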
